A study of Nicotiana tabacum with 9 samples.

Results

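The genes described here are 4 tobacco genes for proteins of the lipid droplet surface, namely the oleosin homologs LOC107821969 (OLE5) and LOC107780677 (OLE8) and the hydroxysteroid dehydrogenase (HSD) homologs LOC107774779 (HSD5) and LOC107771906 (HSD1), the last pair belonging to the steroleosins. They were chosen by name, and all 4 were found among the 74044 genes of the count tables. The names in parentheses are those of the closest Arabidopsis protein, as the study assigned them. No other gene is meant by these short names below unless its identifier is given.

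Plant lipid droplets store triacylglycerol and sterol esters behind a single layer of phospholipids, and proteins anchored in that layer keep the droplets apart and recruit enzymes to them. Oleosins are small structural proteins with a long hydrophobic hairpin and are best known from oil seeds and pollen. Steroleosins carry a short-chain dehydrogenase domain that binds a sterol, next to a hydrophobic anchor, and in Arabidopsis HSD1 has been tied to brassinosteroid responses. Pollen tubes contain lipid droplets, whose lipids may serve the fast growing membrane of the tube.

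The transcripts were measured by RNA sequencing in 3 groups of in vitro grown pollen tubes of the cultivar Samsun-NN, with 3 libraries each. HS 3 + 3 h tubes grew for 3 h at room temperature (RT) and then for 3 h under heat stress (HS) at 37°C, RT 6 h tubes grew for 6 h at RT, and RT 3 h tubes were harvested after 3 h at RT, the age at which heat began. All groups came from pollen pooled from several plants in each experiment. Whether the 3 samples of a group came from separate pools is not given in the sources used here, so p-values measure the spread between these samples. The label of the tissue was not checked against marker genes.

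Between 14931693 reads (HS 3 + 3 h replicate 1) and 26772286 reads (RT 3 h replicate 2) were counted on genes per library, and the other 7 libraries held at least 22899975. Replicates differed by more than counting noise alone gives, so no library was a copy of another. The chi-square per degree of freedom lay between 1.68 and 6.06 for each pair of replicates. The highest values, 3.83 and 6.06, both belonged to pairs with RT 3 h replicate 1, and all other pairs reached at most 2.49. Levels are given as CPM, the counts of a gene relative to the depth of its library, after scaling all 9 libraries with TMM, which evens out the composition of the libraries, and as RPKM, which divides CPM by the exon length in kilobases. Testing a gene took at least 2 libraries, of the 6 compared, in which it exceeded 0.5 CPM, and it was called past an absolute log2FC of 1 with an FDR of at most 0.005 in edgeR's quasi-likelihood test.

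The HSD homologs had a like gene structure, and both oleosin genes had a single exon. On the TN90 assembly, LOC107774779 (HSD5) ran on the plus strand of scaffold NW_015899875.1 from 1637 to 9888 as the only annotated gene there, with 6 exons, 1333 exon bases and a coding sequence for 356 residues. LOC107771906 (HSD1) ran on the plus strand of NW_015891949.1 from 52397 to 58221, with 6 exons, 4667 exon bases and a coding sequence for 353 residues. The inner 4 coding exons measured 193, 86, 132 and 165 bases in both genes, in the same order. A second annotated transcript of LOC107774779 lacked the 132-base exon at 3768 to 3899, and counts per gene do not tell the transcripts apart.

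**Figure D1:**
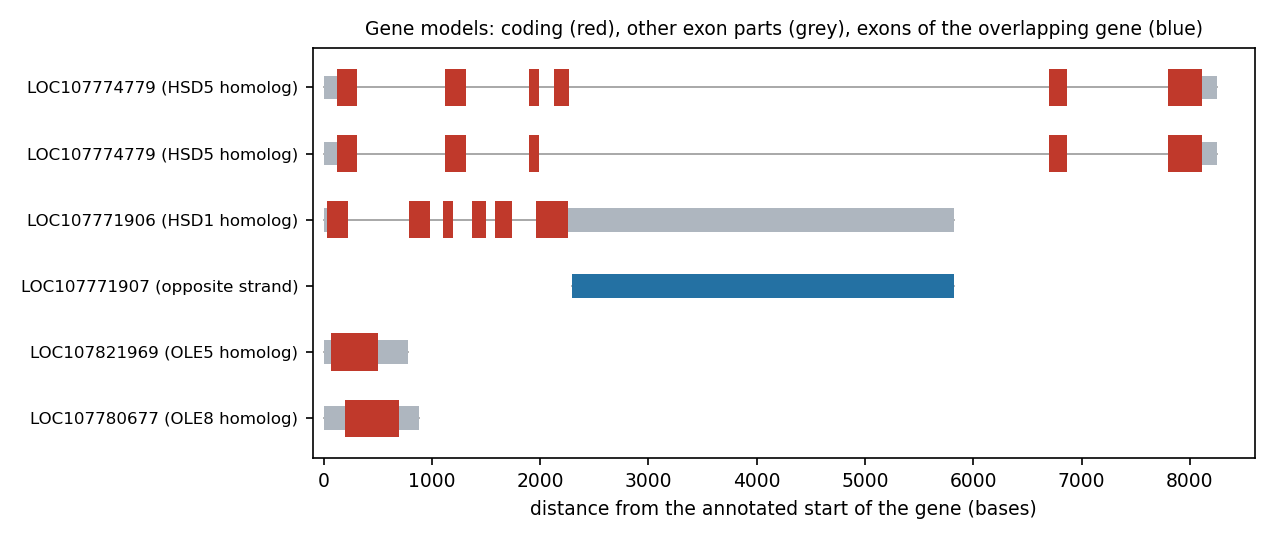
Gene models of the 4 genes against the distance from the annotated start in bases, with coding parts in red, other exon parts in grey, introns as lines, both transcripts of LOC107774779, and in blue the exons of LOC107771907 on the opposite strand. The blue exons cover 3528 of the 4667 exon bases of LOC107771906, all of them outside its coding part.

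The last exon of LOC107771906 reached far past the coding sequence, and 3528 of the 4667 exon bases (75.6%) lay opposite exons of LOC107771907, which left 1139 bases of its own, all coding bases among them. The libraries were not stranded, so reads from the shared bases cannot be told apart by strand, and the rule by which reads on overlapping genes were counted is not given in the sources used here. LOC107821969 (OLE5) lay on the minus strand of NW_015829828.1 from 75890 to 76667, with 778 exon bases and 145 residues. LOC107780677 (OLE8) lay on the minus strand of NW_015906582.1 from 22070 to 22948, with 879 exon bases and 165 residues. Its relative LOC107824536, also assigned to OLE8, had the same coding length of 498 bases, and how reads that match both copies were counted is not given either.

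The steroleosin homologs differed in their pattern. Transcripts of LOC107774779 (HSD5) were found at low but repeatable level in heat-stressed tubes and were nearly absent from the counts at RT. The gene had 44, 71 and 63 counts in the HS 3 + 3 h libraries, 0, 0 and 4 counts in the RT 6 h libraries, and 0, 4 and 3 counts in the RT 3 h libraries. Each HS library thus exceeded every RT library by a wide margin, and both RT groups overlapped each other. A count of 0 allowed a level of up to 0.115 to 0.125 CPM in these libraries (3 counts).

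The mean level of LOC107774779 was 3.12 ± 0.219 CPM in HS 3 + 3 h tubes, 0.0520 ± 0.0901 CPM in RT 6 h tubes and 0.0820 ± 0.0723 CPM in RT 3 h tubes (SD, n = 3 each). As a ratio of summed counts scaled by library size, HS 3 + 3 h tubes stood 58.7-fold over RT 6 h tubes, with an exact 95% interval of 22.5 to 218 that covers counting error only. Against RT 3 h tubes the ratio was 36.6 (17.4 to 92.3). Between the RT groups no difference was detectable at this depth, since the ratio of RT 6 h over RT 3 h was 0.623 with an interval of 0.134 to 2.45.

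LOC107771906 (HSD1) had its highest level in the youngest tubes and did not differ detectably with heat at equal age. It had 10, 10 and 14 counts in HS 3 + 3 h libraries, 13, 14 and 14 counts in RT 6 h libraries, and 21, 37 and 43 counts in RT 3 h libraries. Scaled to library size, these were 0.611 ± 0.144, 0.541 ± 0.00612 and 1.21 ± 0.382 CPM in that order of groups (SD, n = 3 each). Every RT 3 h library lay above every other library on the CPM scale, but the lowest of them, replicate 1 at 0.811 CPM, was close to the highest HS library at 0.741 CPM.

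The ratio of LOC107771906 was 0.443 (0.300 to 0.642) for RT 6 h over RT 3 h and 0.484 (0.318 to 0.721) for HS 3 + 3 h over RT 3 h, while that of HS 3 + 3 h over RT 6 h was 1.10 (0.674 to 1.77; exact 95% intervals, counting error only). The overlapping gene LOC107771907 was more abundant, with 5.92 ± 0.585 CPM in HS 3 + 3 h tubes, 7.18 ± 0.509 CPM in RT 6 h tubes and 7.63 ± 1.31 CPM in RT 3 h tubes (SD, n = 3 each). Its log2FC was -0.08 for RT 6 h against RT 3 h (edgeR FDR = 0.675) and -0.39 for HS 3 + 3 h against RT 3 h (edgeR FDR = 0.0106), neither of which was called. Its part in the counts of LOC107771906 was not tested.

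**Figure D2:**
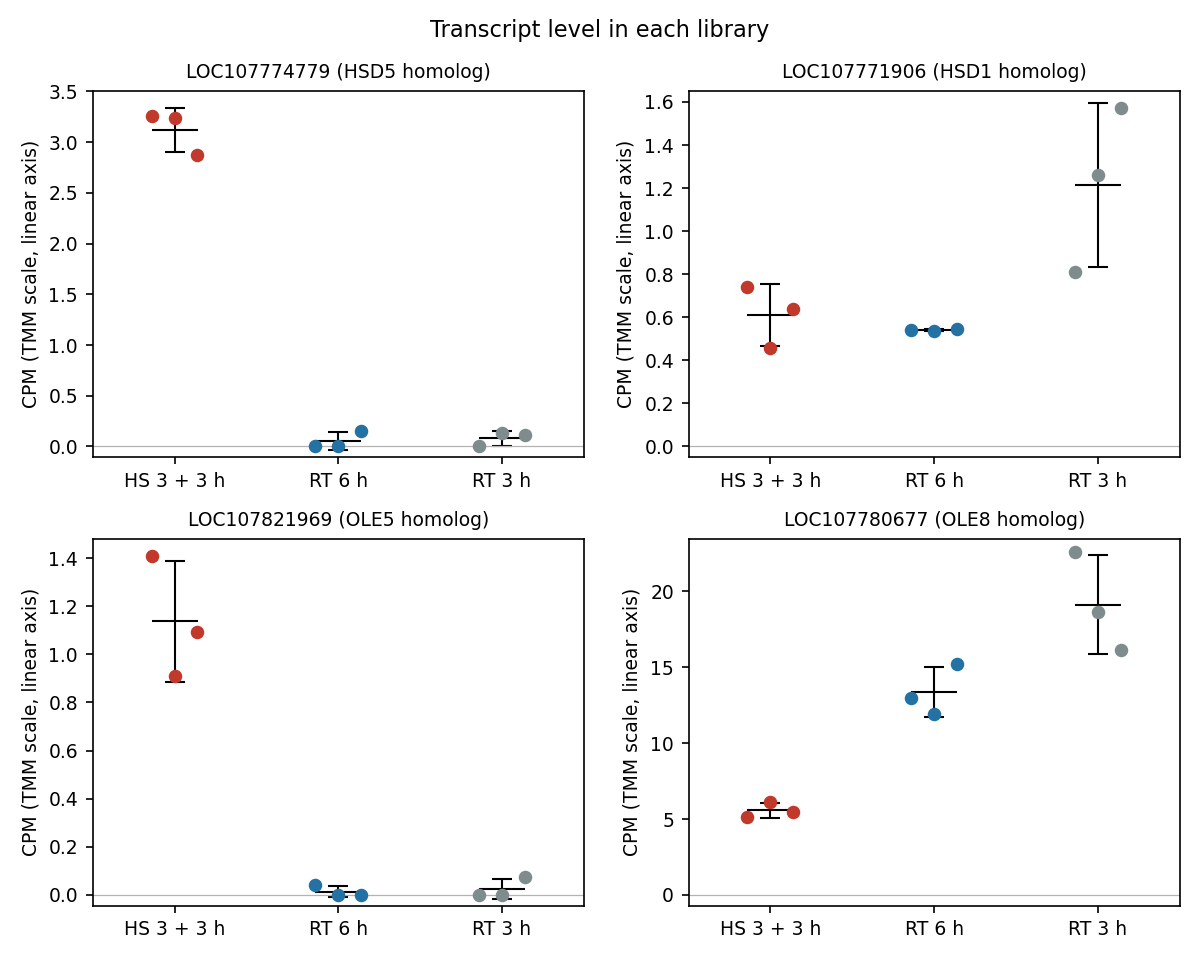
CPM of each of the 4 genes by group on linear axes that differ between panels, with a point per library, the mean as a horizontal line and the SD as a bar (n = 3). HSD5 and OLE5 lie at or near 0 in all 6 RT libraries, HSD1 is highest in RT 3 h, and OLE8 is lowest in HS 3 + 3 h.

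The oleosin homologs went in opposite directions under heat. LOC107821969 (OLE5) had 19, 20 and 24 counts in HS 3 + 3 h libraries, 1, 0 and 0 counts in RT 6 h libraries, and 0, 0 and 2 counts in RT 3 h libraries. It was therefore counted in every HS library and in only 2 of the 6 RT libraries. Its mean level was 1.14 ± 0.251 CPM in HS 3 + 3 h tubes, 0.0139 ± 0.0241 CPM in RT 6 h tubes and 0.0243 ± 0.0422 CPM in RT 3 h tubes (SD, n = 3 each).

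With so few RT counts, the size of the OLE5 difference was poorly bounded. The ratio of HS 3 + 3 h over RT 6 h was 83.2 with an exact 95% interval of 14.4 to 3336, and that of HS 3 + 3 h over RT 3 h was 45.3 (12.0 to 382.5), both for counting error only. OLE5 counts were thus higher in the HS 3 + 3 h libraries in both comparisons, by an amount these libraries do not fix. The intervals pool reads over libraries, and the gene was picked with results of these data known. They are therefore a description and no test.

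LOC107780677 (OLE8) was by contrast the most abundant of the 4 genes in every group and fell under heat. It had 69, 134 and 120 counts in HS 3 + 3 h libraries, 311, 312 and 389 counts in RT 6 h libraries, and 584, 547 and 442 counts in RT 3 h libraries. The groups did not overlap in CPM, where the HS 3 + 3 h libraries lay between 5.11 and 6.11 CPM, the RT 6 h libraries between 11.9 and 15.2 CPM and the RT 3 h libraries between 16.1 and 22.6 CPM. Means were 5.56 ± 0.504, 13.4 ± 1.67 and 19.1 ± 3.23 CPM in the same order (SD, n = 3 each). The ratio of HS 3 + 3 h over RT 6 h was 0.421 (0.371 to 0.478), and that of RT 6 h over RT 3 h was 0.701 (0.647 to 0.759; exact 95% intervals, counting error only).

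Per length, the order of the 4 genes was not the same in HS and RT tubes. In HS 3 + 3 h tubes LOC107780677 (OLE8) led with 6.33 ± 0.574 RPKM, before LOC107774779 (HSD5) with 2.34 ± 0.164 RPKM, LOC107821969 (OLE5) with 1.46 ± 0.323 RPKM and LOC107771906 (HSD1) with 0.131 ± 0.0309 RPKM (SD, n = 3), and no neighbours in this order overlapped in their libraries. In RT 6 h tubes OLE8 stood at 15.2 ± 1.90 RPKM, HSD1 at 0.116 ± 0.00131 RPKM, HSD5 at 0.0390 ± 0.0676 RPKM and OLE5 at 0.0179 ± 0.0310 RPKM. In RT 3 h tubes the values were 21.7 ± 3.68 RPKM for OLE8, 0.260 ± 0.0818 RPKM for HSD1, 0.0615 ± 0.0542 RPKM for HSD5 and 0.0313 ± 0.0542 RPKM for OLE5. HSD5 and OLE5 could not be ordered in either RT group, since their libraries overlapped. HSD1 could not be set above HSD5 in RT 6 h tubes either. There HSD5 reached 0.117 RPKM in replicate 3, beside 0.115 to 0.117 RPKM for HSD1. The order also rests on exon length. With the gene span in its place, HSD5 stood at 0.378 RPKM in HS 3 + 3 h tubes, below OLE5. With all its counts divided by only its own exon bases, HSD1 came to at most 0.537 RPKM there. This is an upper limit, since reads were not counted on those bases alone. In whole tubes, fewer cells of a type and less RNA per cell cannot be told apart.

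The first comparison asked what 3 h of heat changed at equal tube age. Of the 4 genes, 3 were called in HS 3 + 3 h against RT 6 h tubes, where 9.11% of the 23053 genes tested were called, and nothing is read from that share because the genes were picked with results of these data known. LOC107774779 (HSD5) rose with a log2FC of 5.73 (SE 0.39, edgeR FDR = 4.32e-23), and LOC107821969 (OLE5) rose with a log2FC of 5.88 (SE 0.65, edgeR FDR = 8.46e-13). These fitted values depend on the prior count that edgeR adds to near-empty groups and are no bounds. Both genes passed the filter on low counts only through the HS libraries and so had to differ.

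LOC107780677 (OLE8) fell by 1.25 on the log2 scale (SE 0.10, edgeR FDR = 2.01e-18), and all 3 HS libraries lay below all 3 RT 6 h libraries. LOC107771906 (HSD1) was not called, at a log2FC of 0.13 with a 95% interval of -0.59 to 0.86 (edgeR FDR = 0.797), a range that leaves room for a moderate change either way. Without RT 6 h replicate 3, which held all 4 counts of HSD5 in that group, the fitted log2FC of HSD5 was 9.06, and without RT 6 h replicate 1, which held the only count of OLE5, that of OLE5 was 7.60.

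The second comparison followed growth without heat and set RT 6 h tubes against RT 3 h tubes. HSD5 and OLE5 fell under the filter and were not tested, and of the other members 1 of 2 was called, where 1.70% of 23043 genes were called. The called gene was LOC107771906 (HSD1), which fell by 1.16 on the log2 scale (SE 0.29, 95% interval -1.75 to -0.57, edgeR FDR = 0.0030). This call rested on few counts and was lost without any single RT 6 h replicate and without RT 3 h replicate 2 or 3, with values between -1.38 and -0.95 over the 6 libraries left out in turn and an edgeR FDR of up to 0.027. LOC107780677 (OLE8) had a log2FC of -0.51 (SE 0.10, edgeR FDR = 0.00032), past the FDR limit and short of the fold limit, so it was not called.

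The third comparison set HS 3 + 3 h tubes against RT 3 h tubes, the tubes at the onset of heat, and it shares its libraries with the others. Here 3 of the 4 genes were called, where 12.3% of 23373 genes were called. The log2FC was 5.10 for HSD5 (SE 0.35, edgeR FDR = 6.34e-14), 5.22 for OLE5 (SE 0.59, edgeR FDR = 5.33e-09) and -1.77 for OLE8 (SE 0.11, edgeR FDR = 9.50e-15). HSD5 and OLE5 again passed the filter only through the HS libraries, so their calls followed from the filter. Their counts and ratios above describe the difference in the same libraries and are no separate support. Without RT 3 h replicate 3, which held both counts of OLE5 in that group, its fitted log2FC was 7.64. HSD1 lay at a log2FC of -1.04 (SE 0.31, edgeR FDR = 0.0055), just outside the FDR limit, and it was called without RT 3 h replicate 1, where the edgeR FDR was 0.00020.

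OLE5 transcripts came beside other oleosin transcripts that were already present at RT. In all, 5 oleosin homologs were in the lipid droplet list of the study, namely the OLE5 and OLE8 homologs, the second OLE8 homolog LOC107824536 and the OLE3 homologs LOC107802865 and LOC107779096. Their summed level was 25.6 ± 1.36 RPKM in HS 3 + 3 h tubes, 46.3 ± 2.89 RPKM in RT 6 h tubes and 54.5 ± 7.50 RPKM in RT 3 h tubes (SD, n = 3 each). The highest HS library, at 27.1 RPKM, lay below the lowest RT library, at 43.4 RPKM, so the sum of oleosin transcripts was lower in heat-stressed tubes although OLE5 was higher.

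LOC107821969 (OLE5) made up 5.77 ± 1.55% of the oleosin sum in HS 3 + 3 h tubes, 0.0385 ± 0.0667% in RT 6 h tubes and 0.0658 ± 0.114% in RT 3 h tubes (SD, n = 3 each). LOC107780677 (OLE8) made up 24.7 ± 0.922%, 32.7 ± 2.11% and 39.8 ± 1.24% in the same order, with no overlap between groups. The second OLE8 homolog LOC107824536 carried most of the sum in each group, at 58.6 ± 1.42%, 59.5 ± 1.82% and 54.4 ± 0.660%. LOC107780677 thus held a smaller part of the sum in every HS library than in any RT library.

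**Figure D3:**
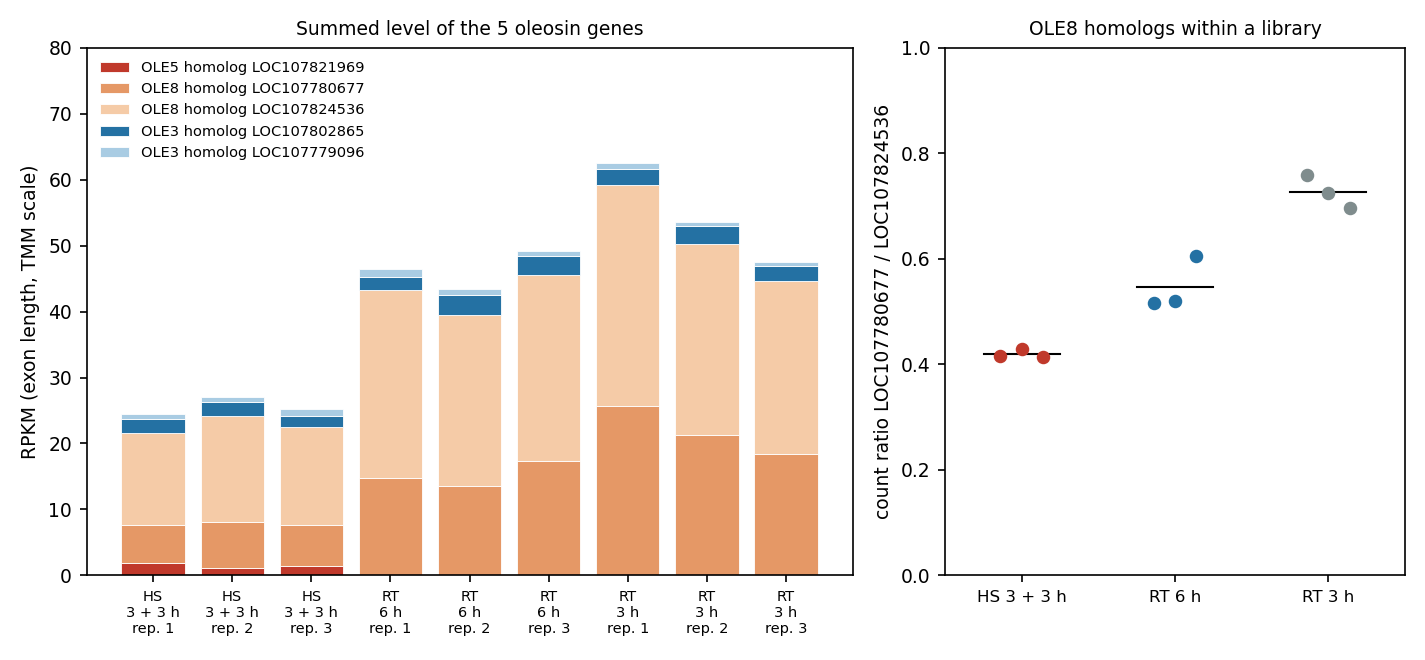
Left, RPKM of the 5 oleosin genes stacked for each library, where the HS 3 + 3 h columns reach 24.4 to 27.1 RPKM and the RT columns 43.4 to 62.5 RPKM. Right, the count of LOC107780677 divided by that of LOC107824536 within each library (points) with the group mean (line), lowest in HS 3 + 3 h and highest in RT 3 h.

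Within a library, the ratio of the OLE8 homologs does not depend on how libraries are scaled. LOC107780677 had 0.416, 0.428 and 0.414 times the counts of LOC107824536 in HS 3 + 3 h libraries, 0.516, 0.519 and 0.606 times in RT 6 h libraries, and 0.758, 0.725 and 0.696 times in RT 3 h libraries. The 3 groups were fully separated. The log2 ratio was lower by 0.38 in HS 3 + 3 h than in RT 6 h tubes, by 0.79 in HS 3 + 3 h than in RT 3 h tubes and by 0.41 in RT 6 h than in RT 3 h tubes. The two-sided exact permutation p was 0.1 for each of the 3 comparisons (0.1 after Benjamini-Hochberg adjustment), which is the smallest that 3 against 3 samples allow, so the design cannot pass 0.05.

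LOC107824536 alone had 13.3 ± 0.984 CPM in HS 3 + 3 h tubes, 24.4 ± 1.26 CPM in RT 6 h tubes and 26.2 ± 3.30 CPM in RT 3 h tubes (SD, n = 3 each). Its log2FC of -0.87 in HS 3 + 3 h against RT 6 h tubes (SE 0.08, edgeR FDR = 2.07e-17) passed the FDR limit and not the fold limit, and the same held for -0.98 in HS 3 + 3 h against RT 3 h tubes (edgeR FDR = 4.85e-11). Without TMM it was called in both, at -1.02 and -1.27. Between RT 6 h and RT 3 h tubes its log2FC was -0.10 (edgeR FDR = 0.426). The OLE3 homologs were rarer, with 1.61 ± 0.216, 2.14 ± 0.444 and 1.98 ± 0.162 CPM for LOC107802865 and 0.683 ± 0.120, 0.784 ± 0.209 and 0.572 ± 0.0754 CPM for LOC107779096 in HS 3 + 3 h, RT 6 h and RT 3 h tubes. Neither was called by edgeR or DESeq2 in any of the 3 comparisons, and 1 of their 6 edgeR tests had an unadjusted p under 0.05 (0.0373, for LOC107802865 in HS 3 + 3 h against RT 6 h tubes).

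Transcripts of caleosins, the calcium-binding proteins of the droplet coat, were found in both heat-stressed and unstressed tubes. All 4 caleosin homologs were counted in each group, and with TMM in edgeR or with DESeq2 0 were called in any comparison, with an unadjusted edgeR p under 0.05 in 5 of 12 tests. LOC107783728 (CLO2) came closest in HS 3 + 3 h against RT 3 h tubes, where its log2FC of -0.74 passed the FDR limit (edgeR FDR = 4.56e-05) and was -1.03 and called without TMM. In HS 3 + 3 h against RT 6 h tubes the log2FC was -0.18 for LOC107817909 (CLO1), -0.43 for LOC107783728 (CLO2), -0.74 for LOC107780594 (CLO4) and 0.46 for LOC107791178 (CLO5), with edgeR FDR values between 0.0051 and 0.577. The most abundant, CLO2, had 4.02 ± 1.08 RPKM in HS 3 + 3 h tubes, 5.21 ± 0.196 RPKM in RT 6 h tubes and 6.48 ± 0.807 RPKM in RT 3 h tubes (SD, n = 3 each).

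The study's list holds 35 lipid droplet protein genes, the 4 members included, and its authors drew it from genes expressed in these libraries. In HS 3 + 3 h against RT 6 h tubes 4 rose, 1 fell and 30 were not called, or 11.4% risen and 2.86% fallen beside 6.24% and 2.87% of all genes tested. Of the 4 risen, HSD5 and OLE5 were tested only through their HS counts. The list had a median log2FC of 0.13 beside 0.01 over all genes tested. Apart from HSD5 and OLE5, the risen genes were LOC107804268, a homolog of LDAP1, whose proteins coat droplets outside seeds, and LOC107776898, a homolog of the droplet-associated hydrolase LDAH1. Without TMM scaling, which moves the median of all genes to -0.15, HSD5 and OLE5 rose, both OLE8 homologs fell and the list median was -0.02. Of all 23053 genes tested, 1170 rose and 1070 fell without TMM.

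LOC107804268 (LDAP1) was far more abundant than any of the 4 members, with 135.2 ± 7.44 RPKM in HS 3 + 3 h tubes, 61.7 ± 0.983 RPKM in RT 6 h tubes and 38.1 ± 1.84 RPKM in RT 3 h tubes (SD, n = 3 each), a log2FC of 1.13 in HS 3 + 3 h against RT 6 h tubes (SE 0.05, edgeR FDR = 2.88e-36). LOC107776898 (LDAH1) had 10.1 ± 0.985, 4.66 ± 0.147 and 3.40 ± 0.0654 RPKM in the same order and a log2FC of 1.12 (SE 0.07, edgeR FDR = 1.56e-24). Both calls were lost without TMM, where the log2FC was 0.97 for LOC107804268 and 0.96 for LOC107776898, just inside the fold limit. The fitted log2FC of HSD5 and OLE5 was larger, but both were tested only through their HS counts, so that ranking is no result. LDAP1 had the larger amount of transcript.

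In RT 6 h against RT 3 h tubes 33 list genes were tested, of which 0 rose and 1, HSD1, fell (3.03%, beside 0.785% fallen of all genes tested). At an unadjusted edgeR p under 0.05, 9 were higher and 9 lower, for which the share over all genes was not worked out. By the edgeR FDR limit of 0.005 alone, 4 were higher and 4 lower, where 15.3% of all genes tested passed that limit. DESeq2 called 0 of the list. The list median was 0.11 beside 0.01 over all genes, or -0.03 beside -0.13 without TMM. In HS 3 + 3 h against RT 3 h tubes 5 list genes rose, namely HSD5, OLE5, LOC107776898 and the LDAP1 homologs LOC107804268 and LOC107765167, and 1, OLE8, fell, or 14.3% risen and 2.86% fallen beside 7.36% and 4.92% of all genes tested. Of these 5 risen genes, HSD5 and OLE5 again were tested only through their HS counts. By the FDR limit alone, 10 list genes were higher and 7 lower, where 35.3% of all genes tested passed it. The list median in this comparison was 0.17 beside -0.00069 over all genes. Without TMM 4 list genes rose and 4 fell, where 1161 rose and 2562 fell of all 23373 genes tested. LOC107765167 was then no longer called (log2FC of 0.83), and the 4 fallen were both OLE8 homologs, HSD1 and CLO2. The list median without TMM was -0.11 beside -0.28.

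**Figure D4:**
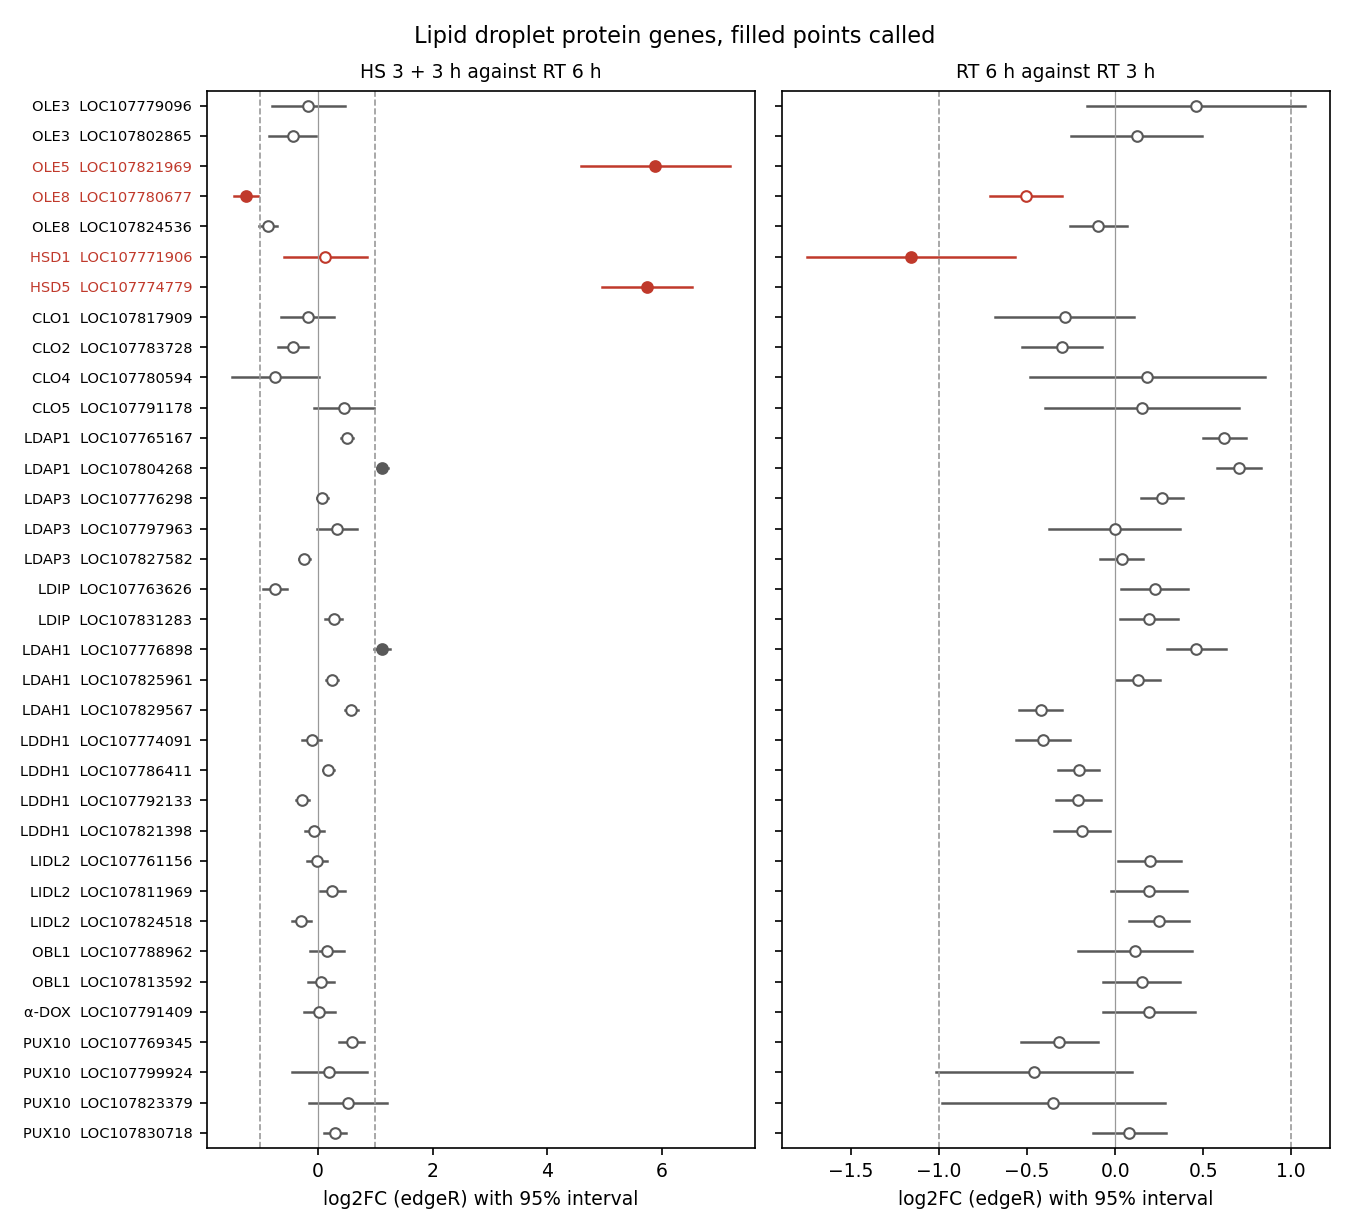
Log2FC with its 95% interval for the 35 lipid droplet protein genes in HS 3 + 3 h against RT 6 h (left) and for the 33 tested in RT 6 h against RT 3 h (right), with the 4 members in red, filled points called and dashed lines at the fold limit. HSD5 and OLE5 stand far right of all others on the left, and only HSD1 is called on the right.

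Over the 9 libraries, the genes most like each member by Pearson correlation of log2 CPM were found among 24012 genes. This is a description with no test, since the points share libraries and groups and 534, 767 and 539 genes exceeded r = 0.95 with HSD5, OLE5 and OLE8. For HSD5 they were LOC107792373 (r = 0.995), LOC107831637 (0.992) and LOC107804758 (0.992). Their mean CPM in HS 3 + 3 h, RT 6 h and RT 3 h tubes was 67.9, 42.1 and 44.1 for LOC107792373. It was 62.9, 44.4 and 47.0 for LOC107831637, and 2.24, 0.104 and 0.0957 for LOC107804758. A high r thus came with unlike sizes of change. For OLE5 they were LOC107825613, LOC107788512 and LOC107781813 (r = 0.993, 0.993 and 0.992). In the same order of groups, LOC107825613 had 7.70, 0.0266 and 0.0851 CPM. LOC107788512 had 5.44, 2.02 and 1.96 CPM, and LOC107781813 had 6.88, 1.30 and 1.28 CPM.

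For OLE8 the most alike were LOC107759015, LOC107772806 and LOC107789017 (r = 0.995, 0.993 and 0.992). Mean CPM in HS 3 + 3 h, RT 6 h and RT 3 h tubes was 33.7, 41.9 and 46.9 for LOC107759015. It was 73.2, 126 and 169 for LOC107772806, and 2.48, 6.16 and 9.12 for LOC107789017. HSD1 had few genes like it: the closest was LOC107771276 (r = 0.956), the only one over 0.95, before LOC107827401 (0.936) and LOC107831231 (0.935). The deposited annotation gives no product for any of these genes.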

How the data were processed

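The authors sequenced non-stranded mRNA libraries as 50 bp single-end reads (bcl2fastq 2.17.1.14), aligned them to the TN90 assembly with STAR 2.5.2a, allowing 2 mismatches, and counted reads per gene with featureCounts 1.5.0-p1. The deposited values are raw counts per gene. The handling of reads with several matches is not given in the sources used here. Groups came from the labels, and the tables had 0 further columns with values of single samples. Gene positions and exon lengths came from the annotation deposited with the counts, and Arabidopsis names from the study's lipid list.

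For each comparison, its 6 libraries were fitted in R 4.3.3 with edgeR 4.0.16 (TMM, quasi-likelihood test, default prior count, Benjamini-Hochberg over all genes tested). The SE was derived from the F statistic. Genes needed more than 0.5 CPM, which is 7.47 to 13.4 counts, in at least 2 libraries. Intervals of count ratios are exact (Clopper-Pearson, scipy 1.17.1), and reads without molecular identifiers are not independent molecules, so intervals and floors cover counting error only. Log2 CPM for correlations used a prior count of 2, over genes past the filter in at least 2 of the 9 libraries. The fits were also run on simulated counts with set changes. These did not model near-empty groups, such as HSD5 and OLE5 at RT, or a shift in library composition. Alternatives were DESeq2 1.42.0, its size factors in edgeR, no TMM, no filter, a replicate block, a joint fit of the 9 libraries, an FDR limit of 0.05, gene span in RPKM, 1 count added in the ratio, and each library left out. RPKM of LOC107771906 with all its counts divided by only its own exon bases was added after seeing the data. The genes named are the 4 members, the oleosin, caleosin and called genes of the lipid droplet list, LOC107771907 as the overlapping gene, and the 3 most correlated genes of each member. Members and lists were chosen with earlier results of these data known. Sequences were not analysed here. Python 3.11.15, pandas 2.3.3 and matplotlib 3.10.9 served for tables and figures.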

Additional observations from a re-analysis of the deposited data

How the results depend on the processing

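OLE8 (HS lower than each RT group) kept direction and call under all alternatives, as it did in RT 6 h against RT 3 h, not called. HSD5 and OLE5 stayed called too, which says little, since 0 to 4 RT counts per library and the filter nearly fix that outcome. Leaving out each library in turn gave log2FCs of 5.16 to 9.06 for HSD5, 5.41 to 7.60 for OLE5 and -1.34 to -1.15 for OLE8 in HS 3 + 3 h against RT 6 h, 4.58 to 5.62, 4.66 to 7.64 and -1.89 to -1.65 against RT 3 h, and -0.62 to -0.38 for OLE8 in RT 6 h against RT 3 h. LOC107771906 (HSD1) was less firm. In HS 3 + 3 h against RT 6 h its log2FC was -0.020 without TMM (edgeR FDR = 0.97), of opposite sign and not called. In HS 3 + 3 h against RT 3 h it became called without TMM (-1.32), with no filter (-1.06), with all 9 libraries in one fit (-1.03) and with an FDR limit of 0.05 (-1.04), and ran from -1.26 to -0.83 with each library left out, called only without RT 3 h replicate 1. In RT 6 h against RT 3 h it ran from -1.38 to -0.95, and of these 6 fits it stayed called only in that without RT 3 h replicate 1, while the call held in the other alternatives that gave an adjusted p. The listed lipid droplet genes called there were 0 with DESeq2, which gave HSD1 no adjusted p, and 0 to 1 with a library left out. The causes were not tested.

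The share of higher genes among all called was 68.5% with TMM and 52.2% without it in HS 3 + 3 h against RT 6 h, 53.7% and 28.5% in RT 6 h against RT 3 h, and 59.9% and 31.2% in HS 3 + 3 h against RT 3 h. Deviations of same-numbered replicates from their group means correlated little, with r from -0.02 to 0.11 over the 3 comparisons. In RT 6 h against RT 3 h, r was 0.11, 0.02 and 0.06 for same-numbered replicates, beside -0.08 to 0.02 for differently numbered ones. Whether the numbers pair the samples is not given in the labels, and these values do not settle it. With the replicate number as a block, 2064 genes were called in HS 3 + 3 h against RT 6 h, 416 in RT 6 h against RT 3 h and 2799 in HS 3 + 3 h against RT 3 h, beside 2099, 391 and 2870 without it, and no call of a member changed. Over gene spans, RPKM of HSD5 was 0.378 in HS 3 + 3 h. All counts of HSD1 divided by only its own exon bases gave upper limits. These were 0.537 RPKM in HS 3 + 3 h, 0.475 in RT 6 h and 1.07 in RT 3 h tubes. RT counts of 0 to 4 limit how far the folds of HSD5 and OLE5 can be known, and 10 to 43 counts per library limit HSD1.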
